A study of Mus musculus with 23 samples.

Results

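The subject is the chemokine family: secreted or membrane-bound ligands and the 7-pass receptors that bind them. Members were all genes on the array whose annotated symbol begins with Ccl, Cxcl, Ccr, Cxcr, Cx3cl or Cx3cr. There were 53 of them, on 78 probes, among 19057 genes with a single annotated symbol. Of the 53, 30 genes (40 probes) were detected, which here means a detection p under 0.01 on at least 3 of the 23 arrays, among 10955 genes so detected.

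Vessels came from male C57BL/6J mice, 12 weeks old, infused for 14 days through osmotic minipumps with angiotensin II at 490 ng/kg/min (AngII) or with vehicle (Sham). Thoracic aorta and abdominal aorta had 3 AngII and 3 Sham arrays each, and mesenteric arteries had 6 AngII and 5 Sham arrays. Each array (an Illumina mouse BeadChip) was hybridised with RNA from a pool of 2 like vessels, so errors describe the spread between pools. The study's methods name fewer mice than the number of vessels pooled, so some mice gave several vessels. Which arrays share mice is not stated, and arrays of different vessels were treated as independent. The p-values between vessels, for Sham levels and for AngII effects, leave this sharing out. Sham mice carried a pump as well. By the study's methods the vessels were cleaned of surrounding tissue before whole segments were extracted, so the values describe a mixture of the cells of the vessel wall and of what still adhered to it.

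Chemokines guide leukocytes through tissue by binding G protein-coupled receptors on the cell surface, and their names follow the spacing of the first cysteines (CC, CXC and CX3C). Some, such as Ccl21a, Ccl19, Cxcl12 and Cxcl13, are made constantly and place cells in lymphoid organs and lymphatic vessels, while others, such as Ccl2, Ccl5, Cxcl1 and Cxcl9, are induced by inflammatory signals. In the hypertensive vessel wall they are studied for their part in drawing monocytes, macrophages and T cells into the adventitia and the fat around it.

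Levels are given as log2 intensity after background correction and quantile normalization, with 16 added before the logarithm, and the offset shrinks differences of dim genes. Every array detected 17432 to 18657 of 45281 transcripts. Among the mesenteric arrays 3, of which 2 were AngII and 1 Sham, were rich in pancreatic transcripts (Try4 above 10), and 1 Sham abdominal array was rich in skeletal muscle transcripts (Acta1 at 11.19). Where a call named below was lost on leaving these arrays out, the value without them stands beside it. In whole vessels, fewer cells of a type and less RNA per cell cannot be told apart.

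Ligands were detected far more often than receptors. Of 22 CC ligands 16 were detected, of 12 CXC ligands 7, and Cx3cl1 (fractalkine, a ligand tethered to the cell membrane) was detected on all arrays. Of 10 CC receptors only Ccr2 and Ccr6 were detected, and of 6 CXC receptors only Cxcr3 and Cxcr4. The fractalkine receptor Cx3cr1 and the atypical receptor Ccrl2, which binds chemerin, were detected on all 23 arrays. On none of the 23 arrays were Ccr1, Ccr3, Ccr4, Ccr7, Ccr8, Ccr9, Ccr10, Ccr1l1, Cxcr1, Cxcr2, Cxcr5 and Cxcr6 detected. Several detected ligands therefore lacked a detected receptor: Ccl21a and Ccl19 (Ccr7), Ccl11 and Ccl24 (Ccr3), Cxcl1 (Cxcr2), Cxcl13 (Cxcr5) and Cxcl16 (Cxcr6). A receptor that is not detected lay within the background of the array, which is not the same as being absent. Ccl3 was detected on 1 array and Cxcl2 on 2 arrays, all of abdominal aorta with AngII, and the other undetected ligands were Ccl1, Ccl20, Ccl22, Ccl26, Ccl28, Cxcl3, Cxcl11, Cxcl15 and Cxcl17.

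Of the 30 detected genes, 18 were detected on all arrays, 7 on 10 or more, and 5 (Ccl2, Ccl17, Ccr6, Cxcr3, Cxcr4) on 3 to 9. Just inside the limit were Ccl17 and Ccr6 (3 arrays each), and just outside it Cxcl2 and Ccl3. Genes detected on few arrays entered the tests through the arrays on which they were high, so the counts below describe the family and are no test of it. Some probes need care. Ccl21a and Ccl21c are near-identical copies within a multigene cluster, so their probes may report the same transcripts. The gene models of Ccl27a and Il11ra1 overlap, as do those of Ccl3 and Ccl4, and Ccl27a also has a close copy, Ccl27b. The Ccr2 values come from a probe designed on a cDNA clone and detected on 21 arrays, while the probe for the RefSeq transcript of Ccr2 was detected on 0 arrays. Ccl4, Cxcl10 and Ccr6 each have a further probe for the same RefSeq transcript as the probe used, and it too was detected on 0 arrays.

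The Sham arrays answered how the family differs between vessels before any infusion of Ang II. Against Sham mesenteric arteries, Sham thoracic aorta had 20 of the 30 genes lower and 3 higher (limma, Benjamini-Hochberg adjusted p under 0.05), 76.7% of the family, where 53.0% of all genes tested passed (26.0% lower and 27.1% higher). The median log2 difference of the family was -0.97, against 0.03 for all genes. In Sham abdominal aorta 14 genes were lower and 3 higher than in mesenteric arteries (56.7% of the family, background 47.8%, with 24.0% lower and 23.8% higher), and the median was -0.46 against 0.03. Groups did not overlap for 25 of 30 genes in the first comparison, where 52.1% of all genes did not overlap, and for 19 in the second, where the share of all genes was 45.3%.

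The largest differences were in Ccl21c and its near-copy Ccl21a, a ligand of Ccr7 made by lymphatic endothelium and lymph node stroma that draws dendritic cells and naive T cells. Its log2 levels in Sham thoracic aorta were 7.21, 7.53 and 7.11, in Sham abdominal aorta 10.61, 11.08 and 10.39, and in Sham mesenteric arteries 12.57, 12.97, 12.89, 13.03 and 12.83. The 3 vessels were fully separated, in the order thoracic, abdominal, mesenteric. Thoracic aorta was 47.7-fold below mesenteric arteries (log2 difference -5.58 ± 0.21 SE, limma adjusted p = 8.5e-16), and abdominal aorta 4.49-fold below (-2.17 ± 0.21, adjusted p = 1.3e-08). Thoracic aorta lay 10.6-fold below abdominal aorta (-3.41 ± 0.23, adjusted p = 3.6e-10). The Ccl21c probe read 6.67, 7.12 and 6.58, then 10.23, 10.76 and 10.05, then 12.25, 12.85, 12.57, 12.50 and 12.52, and gave -5.75, -2.19 and -3.56 in the same comparisons. Ccl19, the other ligand of Ccr7, did not follow this gradient: its Sham means were 8.14 ± 0.16 (SD, n = 3), 8.88 ± 0.32 (n = 3) and 8.58 ± 0.23 (n = 5) in the same order, and it passed between thoracic and abdominal aorta (-0.74 ± 0.22, adjusted p = 0.0265). That call was lost without a filter and in 3 of 6 fits with 1 array left out, and on the authors' values Ccl19 passed between thoracic aorta and mesenteric arteries (-0.74, adjusted p = 0.000305).

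Of the lymphatic endothelial markers, 6 of 6 measured (Lyve1, Prox1, Flt4, Pdpn, Reln, Mmrn1) were lower in Sham thoracic and in Sham abdominal aorta than in mesenteric arteries, with medians of -2.29 and -2.13. Of all genes 26.0% were lower in thoracic and 24.0% in abdominal aorta. Between thoracic and abdominal aorta 2 of the 6 markers were lower in thoracic aorta (median -0.28, with 8.82% of all genes lower). Their summed intensity ranged from 954 to 1149 in Sham thoracic aorta, from 1376 to 1472 in Sham abdominal aorta and from 6291 to 7462 in Sham mesenteric arteries. Of the 6 lymph node and high endothelial venule markers, Glycam1, Madcam1, Chst4 and Cr2 were not measured above the detection limit, leaving Ccl19 and Fcer2a. The part of these cells in the Ccl21a difference was not tested.

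Fractalkine followed, with the same order of vessels. Cx3cl1 read 7.07, 6.92 and 7.07 in Sham thoracic aorta, 7.67, 7.67 and 7.64 in Sham abdominal aorta, and 9.56, 9.23, 9.17, 9.38 and 9.05 in Sham mesenteric arteries, again without overlap. The thoracic and abdominal differences from mesenteric arteries were -2.26 ± 0.12 (4.79-fold, limma adjusted p = 3.65e-13) and -1.62 ± 0.12 (3.07-fold, adjusted p = 2.08e-10). Its receptor Cx3cr1 did not pass in either comparison (-0.37 ± 0.19 and -0.07 ± 0.19, adjusted p = 0.117 and 0.794).

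Among inflammatory CC ligands, the macrophage chemokines Ccl6 and Ccl9 and the T cell chemokine Ccl5 were lower in the aorta. Ccl9 had Sham means of 8.11 ± 0.15 in thoracic aorta, 8.4 ± 0.09 in abdominal aorta and 10 ± 0.17 in mesenteric arteries (SD, n = 3, 3 and 5). The differences from mesenteric arteries were -1.89 ± 0.17 and -1.60 ± 0.17, and Ccl6 gave -1.91 ± 0.21 and -1.48 ± 0.21, with limma adjusted p from 1.9e-09 to 3.02e-06 for these 4 values. Ccl5 was not detected on any Sham thoracic array (4.61, 4.5, 4.80), on 2 of 3 Sham abdominal arrays (4.61, 5.24, 5.15) and on all Sham mesenteric arrays (6.34 to 6.56). It was at least 2.69-fold lower in thoracic aorta, a bound set by the lowest detected signal of each array (adjusted p = 2.56e-08), and 2.70-fold lower in abdominal aorta (adjusted p = 1.29e-06). The eotaxins Ccl11 and Ccl24, which attract eosinophils through Ccr3, were also lower: Ccl11 read 8.54, 8.53 and 8.57 in thoracic, 7.95, 8.36 and 8.10 in abdominal and 9.75 to 10.36 in mesenteric Sham arrays, with differences of -1.46 ± 0.18 and -1.87 ± 0.18, and Ccl24 gave -1.50 ± 0.18 and -1.29 ± 0.18. The monocyte chemokine Ccl7 was lower in both (-1.53 ± 0.37 and -1.36 ± 0.37), whereas Ccl8 and Ccl4 did not pass in either.

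All 13 of 13 measured macrophage markers were lower in both parts of the Sham aorta than in mesenteric arteries (medians -1.31 and -1.11). Their summed intensity was 9215 to 11133 in thoracic, 11431 to 12438 in abdominal and 22256 to 26789 in mesenteric Sham arrays, Cd68 and Itgam were not measured, and Lyve1 stands on this list and on the lymphatic one. White adipocyte markers (6 of 7 lower in both, sums 3341 to 5104, 4097 to 5136 and 20403 to 30195) and 11 of 11 endothelial markers moved the same way. Of 8 smooth muscle markers, 6 were higher and 1 lower in thoracic aorta, and 5 higher and 1 lower in abdominal aorta. Of all genes 27.1% and 23.8% were higher there. In these comparisons 26.0% of all genes were lower in thoracic and 24.0% in abdominal aorta. The part of these cells in the chemokine differences was not tested.

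Of the 7 detected CXC ligands, 6 were lower in Sham thoracic aorta than in mesenteric arteries, where 26.0% of all genes were. Among these 6, Cxcl14 did not pass on its other probe (-0.13, limma adjusted p = 0.803). In Sham abdominal aorta 2 of the 7 were lower and 1 was higher, where 24.0% of all genes were lower and 23.8% higher. Cxcl9, induced by interferon-gamma and a ligand of Cxcr3, read 5.40, 5.44 and 4.66 in Sham thoracic aorta, 5.49, 5.53 and 5.71 in Sham abdominal aorta and 8.06, 6.32, 7.04, 6.88 and 6.96 in Sham mesenteric arteries. The aortic and mesenteric arrays did not overlap (-1.89 ± 0.46, limma adjusted p = 0.00143, and -1.48 ± 0.46, adjusted p = 0.0114). Cxcl10, from the neighbouring gene, was detected on none of the 6 Sham aortic arrays and on all 5 mesenteric ones, and was at least 1.79-fold and at least 1.78-fold lower (adjusted p = 1.23e-06 and 1.11e-05). The other Cxcl10 probe was detected on 0 arrays. Cxcl13, which draws B cells into follicles, broke the pattern: it was highest in abdominal aorta (6.38, 6.05, 6.83), lower in mesenteric arteries (5.75, 5.60, 5.08, 5.20, 5.11) and not detected in thoracic aorta (4.36, 4.30, 4.23). The groups did not overlap. Abdominal exceeded mesenteric by 1.07 ± 0.39 (adjusted p = 0.0275, and 0.0611 without the array rich in muscle transcripts), and thoracic was at least 2.67-fold below abdominal aorta (adjusted p = 0.00154). For Cxcl12, the constitutive ligand of Cxcr4, probes disagreed: the probe with the highest mean signal gave -0.39 ± 0.22 for thoracic against mesenteric (adjusted p = 0.15), while the probes for 2 other transcripts gave 1.01 ± 0.11 and 1.14 ± 0.13 (adjusted p = 7.86e-08 and 1.3e-07), so no direction is given for the gene.

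Only Ccr2, Ccl27a and, in one part of the aorta each, Ccrl2 and Cxcl13 were higher in Sham aorta than in mesenteric arteries. Ccr2, the monocyte receptor for Ccl2, read 6.36, 6.51 and 6.53 in thoracic aorta, 5.98, 6.07 and 6.25 in abdominal aorta and 5 to 5.30 on the mesenteric arrays (1.38 ± 0.17 and 1.02 ± 0.17, limma adjusted p = 3.38e-07 and 3.25e-05), with the reservation on its probe given above. Ccl27a, a skin chemokine in its best known role, was higher by 0.90 ± 0.08 and 0.78 ± 0.08, and on the authors' values the abdominal difference was 0.10 and did not pass (adjusted p = 0.132). Ccrl2 passed narrowly in thoracic aorta (0.28 ± 0.11, adjusted p = 0.0465), and on the authors' values its sign turned (-0.20). The mesenteric arrays rich in pancreatic transcripts changed the call of Cxcr4 in the thoracic comparison (-0.47 ± 0.18, adjusted p = 0.036, and -0.38, adjusted p = 0.0813, without them).

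Between the parts of the Sham aorta, 6 of 30 genes were lower in thoracic than in abdominal aorta and 1 was higher (23.3%, where 14.5% of all genes passed, 8.82% lower and 5.65% higher). Beside Ccl21a, Ccl21c, Cxcl13, Cx3cl1 and Ccl19, the lower gene was Cxcl16, a membrane-bound ligand of Cxcr6 that also takes up oxidized lipid (7.46, 7.56 and 7.56 against 8.30, 8.53 and 8.36, difference -0.87 ± 0.12, limma adjusted p = 1.2e-05). The higher gene was Ccrl2 (8.10, 8.10 and 8.30 against 7.74, 7.58 and 7.80, difference 0.47 ± 0.13, adjusted p = 0.0153). The groups did not overlap for 14 of 30 genes, where 35.5% of all genes did not overlap. On the authors' values, whose medians differ between vessels, 21 of the 30 genes passed, where 55.7% of all genes did. With the replicate number as a block 27 passed, and the share of all genes was not computed for that fit.

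**Figure D1:**
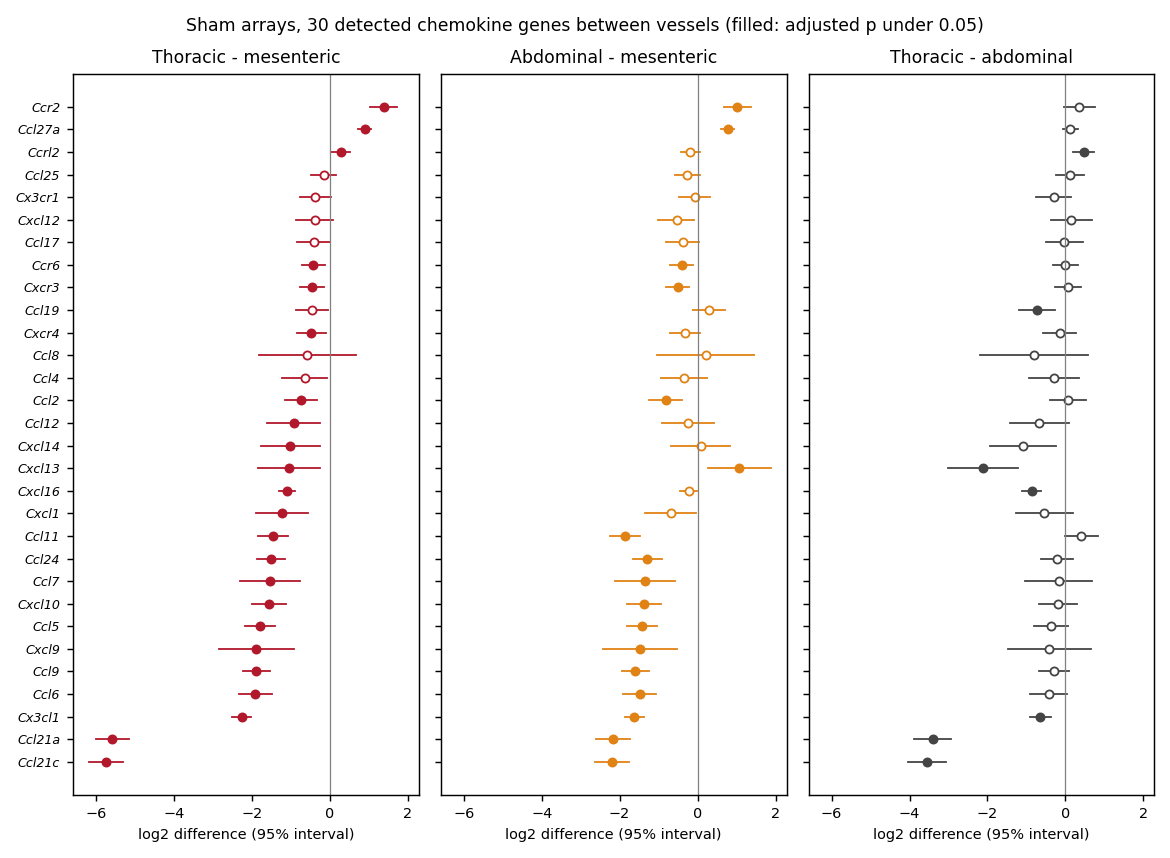
Log2 differences (x axis) with 95% intervals between Sham vessels for the 30 detected chemokine genes, sorted by thoracic against mesenteric. Filled points passed at an adjusted p under 0.05; Ccl21a and Ccl21c lie at -5.58 and -5.75 in the left panel, and 20 genes there are lower and 3 higher in thoracic aorta.

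Ang II infusion was then compared with Sham within each vessel. In thoracic aorta 12 of the 30 genes were higher and 2 lower with AngII, 46.7% of the family, where 18.5% of all genes tested passed (10.5% higher and 8.01% lower). The family median was 0.42 on the log2 scale and that of all genes 0. In abdominal aorta 2 genes were higher and 0 lower (6.67%, background 1.41%, with 1.27% higher and 0.146% lower), although 27 of 30 differences were positive and the median was 0.49 against -0.02. In mesenteric arteries limma called 0 of 30 genes (background 0.310%, with 0.265% higher and 0.0456% lower), 8 had an unadjusted p under 0.05, and the median was -0.11 against -0.01. AngII and Sham arrays did not overlap for 20 genes in thoracic aorta (39.5% of all genes), 13 in abdominal aorta (21.8%) and 1, Cx3cl1, in mesenteric arteries (2.45%).

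**Figure D2:**
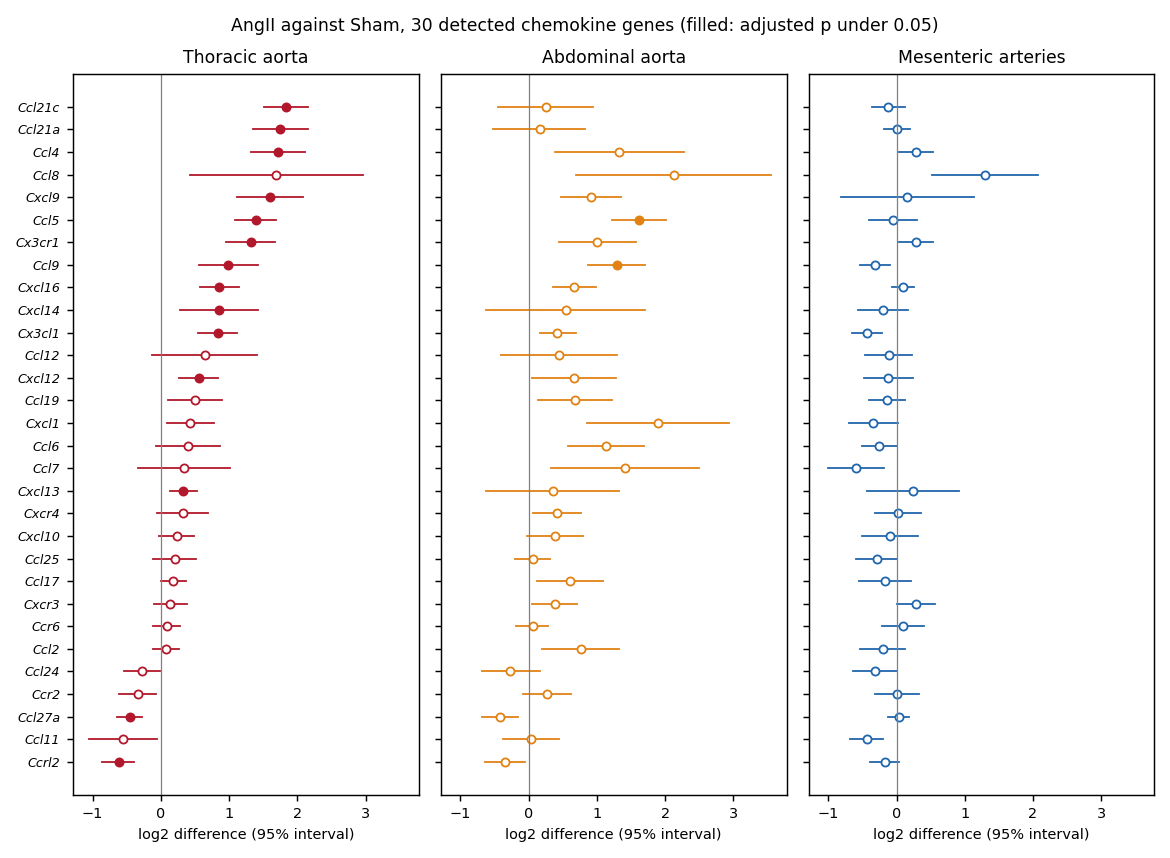
Log2 differences (x axis) with 95% intervals between AngII and Sham for the 30 detected chemokine genes in each vessel, sorted by thoracic aorta. Filled points passed at an adjusted p under 0.05, which is 14 genes in thoracic aorta, 2 in abdominal aorta and 0 in mesenteric arteries.

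The homeostatic ligand Ccl21a had the larger rises in thoracic aorta together with Ccl21c and Ccl4. Ccl21a read 7.21, 7.53 and 7.11 with Sham and 9.26, 8.63 and 9.21 with AngII. The groups did not overlap, and the difference was 1.75 ± 0.18 (SE), or 3.37-fold (limma adjusted p = 0.000439). In abdominal aorta the AngII arrays (11.51, 10.87, 10.17) overlapped the Sham arrays (0.16 ± 0.30, adjusted p = 0.847), and in mesenteric arteries AngII arrays ran from 12.68 through a median of 12.89 to 13 (0.01 ± 0.09, adjusted p = 0.977). The AngII effect on Ccl21a was larger in thoracic aorta than in mesenteric arteries by 1.74 ± 0.29 (adjusted p = 0.000495) and than in abdominal aorta by 1.60 ± 0.33 (adjusted p = 0.0308). Even after the rise, the highest thoracic AngII array (9.26) lay below the lowest abdominal Sham array (10.39). Ccl21c rose by 1.84 ± 0.14 on 1 probe and 1.55 ± 0.14 on the other. These were the members whose effect differed between the parts of the aorta, where 0.548% of all genes passed (0.411% with a larger effect in thoracic aorta and 0.137% with a smaller one), and the call was lost on leaving out any of 8 of the 12 aortic arrays for Ccl21a and any of 9 for Ccl21c. On the authors' values the differences were 1.10 and 0.95 and did not pass (adjusted p = 0.157 and 0.252). Without the Sham array rich in muscle transcripts both had an adjusted p of 0.0566 (1.64 and 1.65). The other Ccl21c probe did not pass between the parts of the aorta (1.23, limma adjusted p = 0.139).

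Of the lymphatic endothelial markers 3 of 6 were higher with AngII in thoracic aorta, where 10.5% of all genes were. They were Reln (1.08 ± 0.15, limma adjusted p = 0.00221), Mmrn1 (1.01 ± 0.17, adjusted p = 0.0055, detected on 1 of 3 Sham arrays) and Pdpn (0.55 ± 0.11, adjusted p = 0.0127). Prox1 and Lyve1 gave -0.05 and 0.16 and did not pass. The summed level was 954 to 1149 in Sham and 1294 to 1650 in AngII thoracic arrays, and 1376 to 1472 and 1510 to 2807 in abdominal aorta, where 0 of 6 passed. Their part in the rise of Ccl21a was not tested.

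On the probes used, Ccl4 and Ccl5, which draw T cells and monocytes, came from undetected to detected in thoracic aorta. Ccl4 read 4.43, 4.40 and 4.82 with Sham, none of them detected, and 6.44, 5.88 and 6.49 with AngII, at least 2.40-fold higher (limma adjusted p = 0.000482). The other Ccl4 probe, for the same transcript, was detected on 0 arrays, those with AngII included. Ccl5 read 4.61, 4.5 and 4.80 with Sham and 6.07, 5.77 and 6.23 with AngII, at least 2.02-fold higher (adjusted p = 0.000355). Neither pair of groups overlapped. In abdominal aorta Ccl5 rose as well, from 4.61, 5.24 and 5.15 to 6.81, 6.58 and 6.46 (1.62 ± 0.18, 3.06-fold, adjusted p = 0.0101), again without overlap. Ccl4 there went from 4.37, 4.39 and 5.76 to 6.87, 6.27 and 5.38, with overlap, and did not pass (1.33 ± 0.42, adjusted p = 0.187). In mesenteric arteries Ccl5 read 6.34 to 6.56 with Sham and from 5.75 through a median of 6.56 to 6.74 with AngII, a difference of -0.05 ± 0.16 (adjusted p = 0.922). With AngII, both parts of the aorta thus reached 5.77 to 6.81 for Ccl5, a range that overlapped that of the mesenteric arrays. The AngII effect on Ccl5 exceeded that of mesenteric arteries by 1.44 ± 0.26 in thoracic and 1.67 ± 0.26 in abdominal aorta (adjusted p = 0.00104 and 0.00223). With no Sham thoracic array detected, the first of these is a fitted value and no measured size.

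Ccl9, a macrophage-derived ligand of Ccr1 in mice, was the other member that passed in both parts of the aorta. It rose from 7.94, 8.2 and 8.19 to 9.28, 8.61 and 9.42 in thoracic aorta (0.99 ± 0.19, limma adjusted p = 0.00947) and from 8.41, 8.30 and 8.48 to 10.06, 9.73 and 9.27 in abdominal aorta (1.29 ± 0.18, adjusted p = 0.0191, and 0.0997 without the array rich in muscle transcripts). The groups did not overlap in either. In mesenteric arteries it gave -0.32 ± 0.10 (adjusted p = 0.156), and the effect there was smaller than in thoracic aorta by 1.31 ± 0.23 and than in abdominal aorta by 1.61 ± 0.23 (adjusted p = 0.000883 and 0.00174). Its neighbour Ccl6 gave 0.40 ± 0.21 in thoracic aorta (adjusted p = 0.215). In abdominal aorta Ccl6 read 6.49, 6.19 and 6.06 with Sham and 7.92, 7.41 and 6.80 with AngII, without overlap and without passing (1.13 ± 0.25, adjusted p = 0.0737), yet its abdominal effect exceeded the mesenteric one by 1.38 ± 0.29 (adjusted p = 0.0148).

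Ccl8, which acts through Ccr8 in mice, and the monocyte chemokines that bind Ccr2 showed wide spread. Ccl8 had the largest mean difference in abdominal aorta, 2.13 ± 0.64, and gave 1.69 ± 0.57 in thoracic aorta and 1.30 ± 0.36 in mesenteric arteries, but passed in none (limma adjusted p = 0.161, 0.0703 and 0.113). Its arrays in thoracic aorta were 5.56, 6.25 and 7.54 with Sham and 9.23, 7.09 and 8.11 with AngII, and in abdominal aorta 7.16, 5.93 and 8.65 against 10.35, 9.34 and 8.42. In mesenteric arteries 1 Sham array lay at 8.54 and the others at 6.39 to 6.86, while AngII arrays lay at 7.35 to 9.30, and the Sham array at 8.54 was among those rich in pancreatic transcripts. Without that array Ccl8 was the 1 gene that passed in mesenteric arteries (1.68, adjusted p = 0.0258), and without all 3 arrays of this kind 0 genes passed. Ccl7, a ligand of Ccr2, read 5.74, 5.66 and 6.33 with Sham and 8.32, 7.66 and 5.99 with AngII in abdominal aorta, with overlap. It gave 1.41 ± 0.48 there (adjusted p = 0.214) and -0.60 ± 0.19 in mesenteric arteries (adjusted p = 0.15), neither passing, and the difference between those effects passed narrowly (2.02 ± 0.51, adjusted p = 0.0447). That call was lost in 13 of 17 fits with 1 array left out, without the muscle-rich array (adjusted p = 0.116) and without the pancreas-rich arrays (adjusted p = 0.082). The other Ccl7 probe did not pass there (1.54, limma adjusted p = 0.175). Ccl2 was not detected on any thoracic array and on 2 of 3 abdominal AngII arrays, and Ccr2 itself did not pass in any vessel (-0.34, 0.27 and 0).

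Among CXC ligands in thoracic aorta, Cxcl9 rose from 5.40, 5.44 and 4.66 to 6.65, 7.07 and 6.56, without overlap (1.60 ± 0.21, 3.02-fold, limma adjusted p = 0.00173). In abdominal aorta it went from 5.49, 5.53 and 5.71 to 6.63, 6.83 and 6.02, also without overlap, and did not pass (0.92 ± 0.19, adjusted p = 0.0644). Mesenteric AngII arrays spread from 5.93 to 8.98 around a median of 7.13 (0.16 ± 0.45, adjusted p = 0.909), and with this spread the difference from thoracic aorta did not pass (1.44 ± 0.64, adjusted p = 0.154). Its partners of the Cxcr3 axis stayed near the detection limit in the aorta: Cxcl10 was detected on 0 thoracic arrays and 1 abdominal AngII array, and Cxcr3 on 0 thoracic and 1 abdominal AngII array. Cxcl16 rose from 7.46, 7.56 and 7.56 to 8.30, 8.18 and 8.65 in thoracic aorta (0.85 ± 0.13, adjusted p = 0.00268), reaching the range of abdominal Sham arrays (8.30 to 8.53), and a further probe gave 0.65 (adjusted p = 0.0148). In abdominal aorta Cxcl16 gave 0.67 ± 0.14 (adjusted p = 0.0617). The effect exceeded that of mesenteric arteries in both parts (0.76 ± 0.15 and 0.58 ± 0.15, adjusted p = 0.00187 and 0.0434). The abdominal call was lost in 13 of 17 fits with 1 array left out, without the muscle-rich array (adjusted p = 0.129) and without the pancreas-rich arrays (adjusted p = 0.0737). On the further probe the difference from mesenteric arteries passed in neither part (0.49 and 0.22, limma adjusted p = 0.0728 and 0.605).

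The remaining CXC calls in thoracic aorta were weak. Cxcl14 was not detected with Sham and on 2 of 3 arrays with AngII (5.99, 4.78, 5.21), at least 1.25-fold higher (limma adjusted p = 0.0486), and its other probe did not pass (0.49, adjusted p = 0.392). Cxcl13 passed at 0.33 ± 0.09 (adjusted p = 0.0323) with neither group detected, so no fold is given. Cxcl12 passed on 1 probe (0.56 ± 0.13, adjusted p = 0.0174) and not on its others (0.04 and -0.12). Cxcl1, the neutrophil attractant that acts through Cxcr2, gave 0.43 ± 0.15 in thoracic aorta (adjusted p = 0.0808). In abdominal aorta it went from 5.97, 6.52 and 6.26 to 8.38, 9.18 and 6.87, without overlap but with a wide spread, and did not pass (1.89 ± 0.46, adjusted p = 0.0984). Its abdominal effect differed from the mesenteric one by 2.23 ± 0.44 (adjusted p = 0.0117, and 0.0513 without the muscle-rich array).

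The fractalkine pair rose together in thoracic aorta. Cx3cl1 went from 7.07, 6.92 and 7.07 to 8.02, 7.57 and 7.97 (0.84 ± 0.13, 1.78-fold, limma adjusted p = 0.00312), and Cx3cr1, the receptor carried by monocytes and tissue macrophages, from 5.72, 5.78 and 6 to 7.27, 6.78 and 7.41 (1.32 ± 0.16, 2.49-fold, adjusted p = 0.00108). Neither overlapped. In abdominal aorta both had AngII arrays above all Sham arrays and did not pass (0.42 ± 0.12 and 1 ± 0.25, adjusted p = 0.127 and 0.105). In mesenteric arteries Cx3cl1 went the other way, from 9.05 to 9.56 with Sham down to 8.52 to 8.98 with AngII, without overlap and without passing (-0.44 ± 0.10, adjusted p = 0.0782). The effect on Cx3cl1 in thoracic aorta exceeded the mesenteric one by 1.27 ± 0.17 (adjusted p = 4.73e-05), and that in abdominal aorta did so by 0.86 ± 0.17 (adjusted p = 0.0104). For Cx3cr1 the thoracic effect exceeded the mesenteric one by 1.04 ± 0.27 (adjusted p = 0.0151), a call lost in 1 of 17 fits with 1 array left out.

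**Figure D3:**
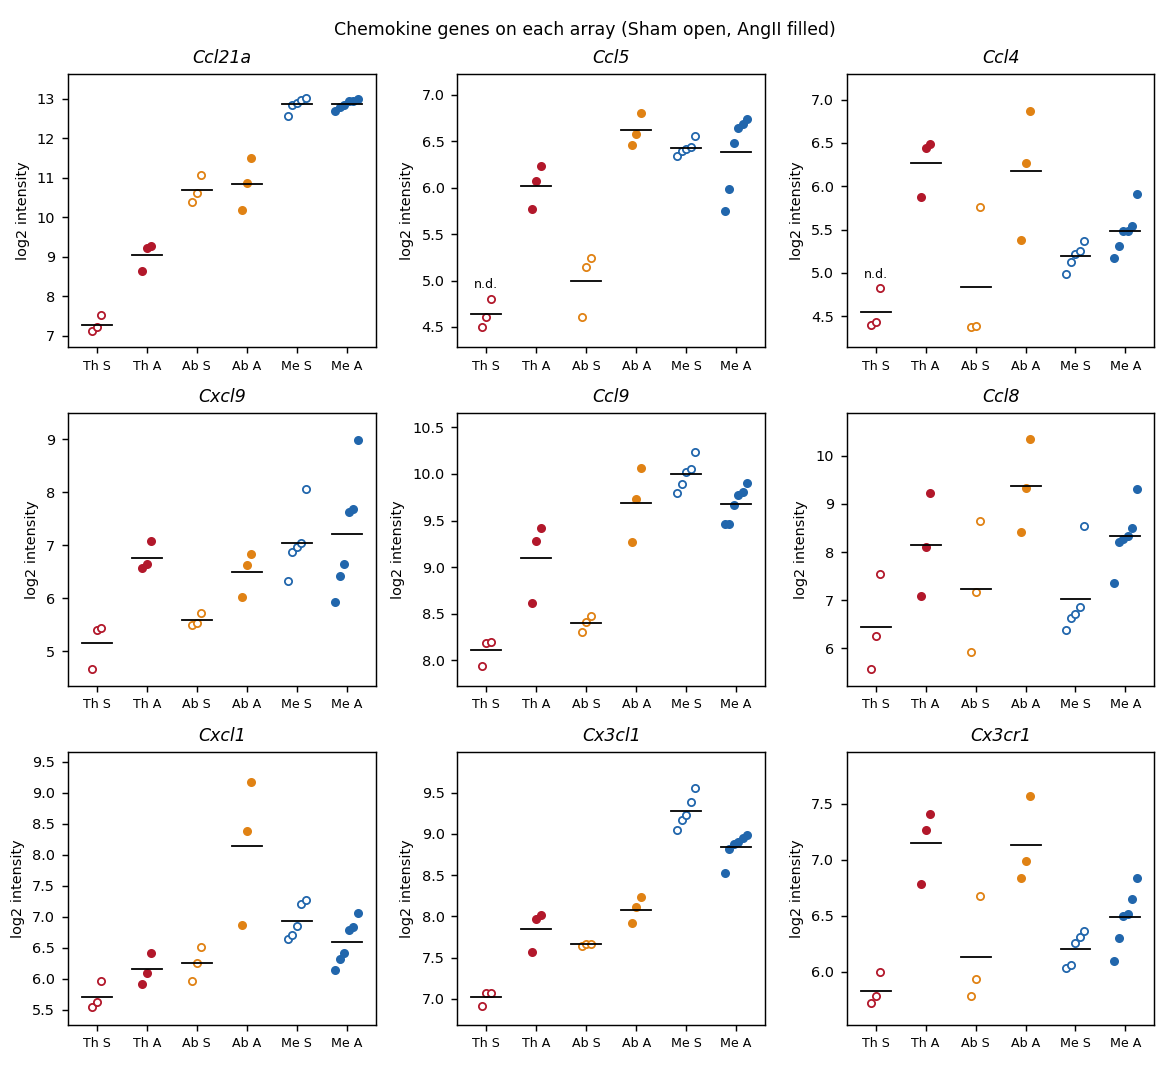
Log2 intensity (y axis) of 9 chemokine genes on each of the 23 arrays, Sham open and AngII filled, by vessel (Th thoracic aorta, Ab abdominal aorta, Me mesenteric arteries; S Sham, A AngII). Bars are group means and n.d. marks groups detected on no array; Ccl21a climbs from 7.11 to 7.53 in Sham thoracic aorta to 12.57 to 13.03 in Sham mesenteric arteries.

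Lower with AngII in thoracic aorta were Ccrl2 and Ccl27a. Ccrl2 read 8.10, 8.10 and 8.30 with Sham and 7.41, 7.67 and 7.56 with AngII (-0.62 ± 0.11, limma adjusted p = 0.00493). Ccl27a read 10.04, 9.93 and 10.04 with Sham and 9.56, 9.53 and 9.55 with AngII (-0.46 ± 0.08, adjusted p = 0.00771), and its effect was lower than in mesenteric arteries in both parts of the aorta (-0.49 ± 0.11 and -0.45 ± 0.11, adjusted p = 0.00678 and 0.0384). The abdominal call was lost in 10 of 17 fits with 1 array left out, without the muscle-rich array (adjusted p = 0.129) and without the pancreas-rich arrays (adjusted p = 0.0969). On the other Ccl27a probe the difference from mesenteric arteries passed in neither part (-0.30 and -0.39, limma adjusted p = 0.267 and 0.256). Neither gene had overlapping groups in thoracic or abdominal aorta. Both were among the genes that stood higher in Sham thoracic aorta than in mesenteric arteries. Cxcr4 and Cxcr3 did not pass in any vessel.

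The tests of the difference between vessels called 9 members for thoracic aorta against mesenteric arteries (8 with a larger effect in thoracic aorta, background 12.5%, with 6.96% larger and 5.59% smaller), 8 for abdominal aorta against mesenteric arteries (7 larger in abdominal aorta, background 2.26%, with 1.73% larger and 0.529% smaller) and 2 between the parts of the aorta. The second count fell to 4 without the abdominal Sham array rich in muscle transcripts and to 5 without the mesenteric arrays rich in pancreatic ones. Larger and smaller here follow the sign of the difference between effects. Comparisons that share Sham or AngII arrays are not independent. Of the 14 calls in thoracic aorta, 11 held under every alternative that tested them and with each array left out, Cxcl12, Cxcl13 and Cxcl14 being the exceptions. In abdominal aorta neither call did: without Sham array 2 or AngII array 2 there were 0 calls, without Sham array 1 (the one rich in muscle transcripts) or Sham array 3 there was 1, and without AngII array 3 there were 10, with Ccl2, Ccl6, Ccl7, Ccl19, Cxcl1, Cxcl9, Cxcl12 and Cxcl16 added. The abdominal AngII arrays 1, 2 and 3 differed in markers of other cells: Ucp1 of brown adipocytes read 10.67, 9.28 and 4.36 (4.29 to 6.32 with Sham), and S100a8 of neutrophils 8.41, 7.89 and 4.95 (4.5 to 5.13 with Sham). Summed over the lists, the 6 brown adipocyte markers ran from 483 to 584 with Sham and from 406 to 3775 with AngII, and the 4 neutrophil markers from 87.8 to 124 and from 104 to 577. Their part in the abdominal values was not tested.

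With AngII, 5 of 13 macrophage markers were higher in thoracic aorta, where 10.5% of all genes were (Cd14 0.63, C1qb 0.77, Lyz1 0.59, Lyz2 0.69 and Adgre1 0.78), 4 of 13 in abdominal aorta, where 1.27% were (Lyz2 0.84, F13a1 0.73, C1qb 1.07 and Lyz1 0.66) and 0 in mesenteric arteries. The summed level was 9215 to 11133 with Sham and 12217 to 18573 with AngII in thoracic aorta, 11431 to 12438 and 18009 to 24103 in abdominal aorta, and 22256 to 26789 and 20457 to 26072 in mesenteric arteries. Of 12 T cell markers 7 were measured, of which Cd8b1 was higher in thoracic aorta (sums 1001 to 1094 with Sham, 1242 to 1352 with AngII), and Cd4, Cd8a, Lck, Trac and Cd5 were not measured. In thoracic aorta 4 of 7 white adipocyte markers (3341 to 5104 with Sham, 9082 to 9315 with AngII), 7 of 8 fibroblast markers and 3 of 5 mast cell markers were also higher. Of 8 smooth muscle markers there, 0 were higher and 3 lower, where 8.01% of all genes were lower (sums 61633 to 64201 with Sham, 53357 to 55547 with AngII). Their part in the chemokine differences was not tested.

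Members shared genome position as well as name. Counting members alone, 11 CC ligand genes follow each other along chromosome 11 on the RefSeq annotation (Ccl2, Ccl7, Ccl11, Ccl12, Ccl8, Ccl1, Ccl5, Ccl9, Ccl6, Ccl3, Ccl4), and 9 of them were detected. They do not form an unbroken row: Ccl1 ends at base 82179812 and Ccl5 starts at base 83525778. The values below pool the genes on both sides of this gap. With AngII, 9 of these 9 differences were positive in abdominal aorta (median 1.29, from 0.04 to 2.13), 8 in thoracic aorta (median 0.64, from -0.56 to 1.72) and 2 in mesenteric arteries (median -0.20). Ccl11, which recruits eosinophils, was the negative one in thoracic aorta. Among these genes Ccl5 and Ccl9 passed in both parts of the aorta and Ccl4 in thoracic aorta. Of all genes 10.5% were higher in thoracic and 1.27% in abdominal aorta. Over the whole family 27 of 30 differences were positive in abdominal aorta, 25 in thoracic aorta and 12 in mesenteric arteries (medians 0.49, 0.42 and -0.11). The part of genome position was not tested.

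Promoters are shown for members on which the results turn, to set the sequence beside the response. They are Ccl21a (passed in thoracic aorta), Cxcl9 (risen) beside its neighbour Cxcl10 (at the detection limit), and Ccl9 and Cxcl1. Of the detected members with a promoter found, Ccl9 and Cxcl1 had an NF-kB-like match, and none was found for some others, such as Ccl4 and Ccl5. The promoters come from RefSeq on GRCm38.p6 and run from 250 bases before to 50 bases after the start site, 5′ to 3′ on the gene's strand. Promoters were found for 39 of the 53 members and 22 of the 30 detected ones. Capitals mark matches to 3 motifs on either strand: an NF-kB-like site (GGG, any pair of bases, then TTTCC), a site like the interferon-stimulated response element (TTTC, any pair of bases, then TTTC) and a STAT-like site (TTCNNNGAA).
Ccl21a (chr4:42773942-42774241, minus strand): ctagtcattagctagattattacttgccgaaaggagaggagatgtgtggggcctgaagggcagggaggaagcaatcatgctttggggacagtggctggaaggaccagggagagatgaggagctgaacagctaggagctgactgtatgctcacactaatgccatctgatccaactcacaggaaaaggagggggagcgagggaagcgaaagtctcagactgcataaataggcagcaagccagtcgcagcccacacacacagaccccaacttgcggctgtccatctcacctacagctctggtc
Cxcl9 (chr5:92328030-92328329, minus strand): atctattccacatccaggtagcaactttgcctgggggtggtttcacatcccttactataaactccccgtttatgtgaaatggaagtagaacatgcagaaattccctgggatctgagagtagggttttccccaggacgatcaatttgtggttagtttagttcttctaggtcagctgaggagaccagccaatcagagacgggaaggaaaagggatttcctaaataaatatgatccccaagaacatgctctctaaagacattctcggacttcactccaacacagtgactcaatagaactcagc
Cxcl10 (chr5:92348840-92349139, minus strand): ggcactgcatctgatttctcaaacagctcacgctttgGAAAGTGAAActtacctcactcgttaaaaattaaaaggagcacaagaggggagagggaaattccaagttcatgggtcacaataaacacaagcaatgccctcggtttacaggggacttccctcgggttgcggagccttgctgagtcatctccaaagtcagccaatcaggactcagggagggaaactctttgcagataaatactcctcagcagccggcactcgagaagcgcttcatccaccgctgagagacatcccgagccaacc
Ccl9 (chr11:83578587-83578886, minus strand): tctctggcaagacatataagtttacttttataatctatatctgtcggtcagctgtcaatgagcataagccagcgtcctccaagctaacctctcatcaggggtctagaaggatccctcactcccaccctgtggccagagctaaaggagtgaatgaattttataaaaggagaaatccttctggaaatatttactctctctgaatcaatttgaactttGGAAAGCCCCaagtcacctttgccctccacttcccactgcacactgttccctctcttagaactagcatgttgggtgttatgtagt
Cxcl1 (chr5:90890995-90891294, plus strand): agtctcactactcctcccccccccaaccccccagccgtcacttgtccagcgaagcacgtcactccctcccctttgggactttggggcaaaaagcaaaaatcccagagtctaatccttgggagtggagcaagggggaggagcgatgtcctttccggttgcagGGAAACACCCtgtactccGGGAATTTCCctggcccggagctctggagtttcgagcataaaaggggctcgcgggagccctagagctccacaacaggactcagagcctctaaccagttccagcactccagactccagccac
Members were counted by gene, with a match in any promoter of the gene, and the background by promoter, so the shares are not strictly alike. The NF-kB-like motif matched in 2 of the 22 detected members with a promoter (Ccl9 and Cxcl1, 9.09%), where 1.63% of all 32851 promoters held it. Cxcl1 held it at 2 places. The interferon motif matched in 3 (Ccl19, Cxcl10 and Cxcl14, 13.6%, against 3.44%), and the STAT motif in 3 (Ccl17, Ccr6 and Cxcl14, 13.6%, against 8.30%). Ccl21a and Cxcl9 had no match in this window. The matches are a description of letters in a short window, and no binding was measured.

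Genes that work with the family were read from 3 lists. Of 18 chemokine system genes outside the symbol rule 13 were measured, and 4 were higher with AngII in thoracic aorta, where 10.5% of all genes were: Cd74 (the receptor of the chemokine-like cytokine Mif, 1.19 ± 0.21, limma adjusted p = 0.00673), Ackr1 (a decoy receptor of venular endothelium, 0.64 ± 0.16, adjusted p = 0.0284), Cklf and Cmtm7. None passed in abdominal aorta or mesenteric arteries, where Cd74 gave 0.78 ± 0.19 and 0.05 ± 0.10. In Sham aorta 10 of 13 were lower than in mesenteric arteries, for thoracic and for abdominal aorta alike. Of all genes 26.0% and 24.0% were lower there. Of 30 signalling genes below the receptors 22 were measured, with 3 higher in thoracic aorta, a share near the 10.5% of all genes. They were Vav1 (0.88), Was (0.90) and Rac2 (0.64, detected on 1 of 3 Sham arrays), regulators of the leukocyte cytoskeleton. In abdominal aorta 1 was higher (Vav1 0.99, where 1.27% of all genes were higher), and 0 in mesenteric arteries. Of 20 inducers of chemokines 14 were measured, with 2 higher in thoracic aorta, a share near that of all genes. They were Il1b (detected on 0 of 3 Sham and 2 of 3 AngII arrays, adjusted p = 0.0465, with no size given) and Tnfrsf1b, a receptor of tumour necrosis factor (detected on 1 of 3 Sham arrays, 0.73 ± 0.17, adjusted p = 0.0216). In abdominal aorta Il1b was detected on 1 of 3 Sham and 3 of 3 AngII arrays and did not pass (adjusted p = 0.0793).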

How the data were processed

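RNA was measured on 23 arrays. The authors deposited a table of intensity values, background-subtracted and without normalization, each accompanied by a deposited detection p-value. They also deposited log2 values, normalized in lumi under R 3.0.2 per the labels; their medians differ between vessels and agree within them, so they were used as an alternative only. The authors' differential expression used limma. Columns of the intensity table name vessel and treatment by initials and were linked to a group, not to a sample; all 23 matched best, by rank correlation, a deposited log2 column of the same group.

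Intensities were processed with neqc (limma 3.58.1, R 4.3.3, statmod 1.5.0; plots in Python 3.11.15 with matplotlib 3.10.9) at an offset of 16. Transcripts detected at p under 0.01 on at least 3 arrays (20585 of 45281) were tested. AngII and Sham were compared in a limma fit for each vessel; Sham vessels and differences of the Ang II effect were tested in 1 fit of 6 group means. Tests were two-sided with Benjamini-Hochberg adjustment over all 20585 transcripts. Of the probes, 34885 carry a single symbol, 18 several and 10378 none; a gene is represented by the tested probe with the highest mean. Any member could be named; values on each array are given for members that passed with AngII or in a difference between vessels, for Ccl21a, Ccl5, Ccl4 and Cxcl9, for the 8 largest Sham differences, and for detected partners. A limma fit of each compared pair of groups, AngII with Sham or Sham with Sham, was tried on simulated independent noise with added differences. The fit of 6 group means, the differences between AngII effects and the sharing of mice were not simulated. A fold against a group not detected on any array is a bound at the lowest detected signal of each array. Arrays give no read depth; their number sets the limit on precision. The same replicate numbers of Sham thoracic and abdominal samples, from the sample titles, deviated together on the authors' values (correlations 0.10 to 0.25 over 3 pairs). The members and the gene lists were chosen with earlier results of these data known. Alternatives were the authors' values, other background, normalization, offset, filter, prior and probe summaries, a replicate block, and arrays left out.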

Additional observations from a re-analysis of the deposited data

Results flagged for a closer look

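Dixon's test for an array far from the others of its group, which chance flags in about 1 of 20 groups, was applied to 60 sets of mesenteric arrays and picked out 4. Ccl8 had 1 Sham array at 8.54 with the next at 6.86, and Ccr2 1 Sham array at 5.30 with the next at 5.07. Cxcl16 had its lowest Sham array at 8.47 with the next at 8.63, and Cx3cl1 its lowest AngII array at 8.52 with the next at 8.82.

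The effect of Ang II differed between vessels, by the interaction test, for 12 genes. Larger in thoracic aorta than in mesenteric arteries were Ccl21a (1.74), Ccl21c (1.96), Ccl4 (1.43), Ccl5 (1.44), Ccl9 (1.31), Cx3cl1 (1.27), Cx3cr1 (1.04) and Cxcl16 (0.76), and the effect on Ccl27a was more negative (-0.49). Ccl4 and Ccl5 were detected on no Sham thoracic array, so these differences for them are fitted values and no measured sizes. With 1 array left out, the call was lost in 4 of 17 fits for Ccl4 and in 1 of 17 for Cx3cr1. That of Ccl4 was also lost without a filter. Larger in abdominal aorta than in mesenteric arteries were Ccl5 (1.67), Ccl6 (1.38), Ccl7 (2.02), Ccl9 (1.61), Cx3cl1 (0.86), Cxcl1 (2.23) and Cxcl16 (0.58), and the effect on Ccl27a was more negative (-0.45). Here the call of Ccl6 was lost in 1 of 17 fits with 1 array left out, and that of Cxcl1 in 2 of 17. Larger in thoracic than in abdominal aorta were Ccl21a (1.60) and Ccl21c (1.59). The other probes of Cxcl16 and Ccl27a passed in none of these tests. That of Ccl7 did not pass for abdominal aorta, nor that of Ccl21c between the parts of the aorta.

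Among genes below the detection limit of the comparisons, Ccl3 was detected on 1 array and Cxcl2 on 2 arrays, all of abdominal aorta with AngII and none with Sham.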

How the results depend on the processing

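The number of chemokine genes passing with AngII was 14 in thoracic aorta and 9 over genes detected on every array, where fewer genes were tested (11 to 19 with 1 array left out). In abdominal aorta it was 2, and 0 on the authors' values and without a filter, 1 without background correction and without the muscle-rich array, 4 over genes detected on every array and with a trended, robust prior, and 8 in 1 fit of 6 groups (0 to 10 with 1 array left out). In mesenteric arteries it was 0, and 2 with the trended prior (Ccl11, Cx3cl1) and 1 in 1 fit (Cx3cl1), with 0 to 1 when 1 array was left out. Between Sham vessels, 23 became 14 over genes detected on every array (thoracic against mesenteric). For thoracic against abdominal, 7 became 21 on the authors' values, where 55.7% of all genes passed. The difference of effects between abdominal aorta and mesenteric arteries went from 8 to 5 on the authors' values, with probes averaged and without pancreas-rich arrays, and to 4 without the muscle-rich array (3 to 12 with 1 array left out). Between the parts of the aorta 2 became 0 on the authors' values, without a filter, with the trended prior and without the muscle-rich array, and 1 with an offset of 50 and with probes averaged (0 to 2). Signs turned for Ccl21a in abdominal aorta (-0.17 to 0.50 with 1 array left out), for Ccl21a (-0.06 to 0.05, and -0.03 without pancreas-rich arrays), Cxcl9 (-0.19 to 0.42) and Ccl5 (-0.12 to 0.08) in mesenteric arteries, and for Ccrl2 between Sham thoracic aorta and mesenteric arteries (-0.20 on the authors' values). The cause was not tested for these changes.

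The replicate block was fitted on the authors' values alone, by the number in the sample titles. The labels do not say what this number pairs, so same-numbered samples may not share mice. The block gave 0 calls in abdominal aorta, 27 between the Sham aortas, 0.05 for Ccl5 in mesenteric arteries and -0.17 for Ccrl2. Correlations of same-numbered samples were -0.01 to 0.20, 0.02 to 0.28 and -0.56 to 0.86 for AngII and Sham in the thoracic, the abdominal and the mesenteric vessels. The authors' values moved the median of all genes between Sham vessels by -0.32 (thoracic against mesenteric) and -0.29 (abdominal against mesenteric). Over the results that passed, with those of Ccl21a, Ccl5, Ccl4 and Cxcl9 for AngII against Sham, there were 1783 combinations of a result and a setting, of which 1574 kept sign and call, 191 lost the call, 5 gained it and 13 turned sign. Counting all members, a result that did not pass did so in 133 combinations. Dim genes near the detection limit carry the least certain folds.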
